A study of Mus musculus with 4 samples.

Results

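The genes described here encode enzymes of pyruvate and fatty acid oxidation, most of them in mitochondria. They are 38 of the 46095 gene symbols in the table of counts, named by function: 5 genes of pyruvate dehydrogenase and pyruvate carboxylase, 13 of the citric acid cycle, 5 of fatty acid activation and the carnitine shuttle, 12 of beta-oxidation and 3 of electron transfer flavoprotein. All 38 symbols were found in the table.

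Pyruvate dehydrogenase makes acetyl-CoA from pyruvate, and beta-oxidation makes it from fatty acids that the carnitine shuttle has carried into the matrix. The citric acid cycle oxidizes acetyl-CoA, and the electrons reach the respiratory chain as NADH or through flavoproteins. In the stomach the acid-secreting parietal cell is known for its many mitochondria and its reliance on oxidative metabolism.

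RNA of the stomach was sequenced in 2 WT samples and 2 samples of *Atp4b-cre; Myc OE* mice, all on a C57BL/6 background and 12 weeks old. In the latter (*Atp4b-cre; Myc fl/+*), human *c-Myc* is overexpressed where Cre from the *Atp4b* promoter is active, in parietal cells and their lineage. The WT samples are of littermates without *Atp4b-cre* that carry the floxed allele (*Myc fl/fl*). The study used mice of both sexes, and the RNA came from stomach tissue, so that cells outside the parietal lineage contributed to every value. The comparison asks how the transcriptome of the stomach differs when *c-Myc* is overexpressed. The counts summed to 36152857 and 30260305 in WT replicates 1 and 2 and to 31350412 and 41463647 in *c-Myc* transgenic replicates 1 and 2.

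In the transgenic columns the counts did not stand beside their own gene names, and they were assigned, in row order, to the names sorted by character code. The effect on these genes could be followed row by row. The counts 14312 and 15876 that re-sorting gave to *Mdh2* stood in the deposited row of *Mdh1*, and those of *Idh3a* (5708 and 7671) stood in the row of *Idh2*. As deposited, 3 of the 38 genes had no counts in either transgenic sample, among them *Ogdh* with 31596 and 24601 counts in WT. Pearson's r between the mean log2(count + 1) of the genotypes, taken over the 38 genes, which are no replicates of each other, was 0.184 as deposited and 0.988 after re-sorting. For 10 genes (*Cs*, *Cpt1a*, *Cpt1b*, *Cpt2*, *Echs1*, *Eci1*, *Eci2*, *Etfa*, *Etfb* and *Etfdh*) both orders give the same row, so their counts do not depend on the re-sorting.

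The samples of a genotype also differed among themselves. WT replicate 2 had 17846 counts of *Xist* and 5 of the Y-linked *Ddx3y*, against 85 and 1861 in WT replicate 1, 113 and 1941 in transgenic replicate 1 and 201 and 2623 in transgenic replicate 2. The 6 white adipocyte markers summed to 372 normalized CPM in WT replicate 2, against 122.5 in WT replicate 1, 19.8 in transgenic replicate 1 and 38.6 in transgenic replicate 2 (CPM are counts per 1e6 counts, here after TMM scaling). Their most abundant gene was *Cfd* in WT and *Cidec* in transgenic replicates 1 and 2 (19.08 and 25.25 normalized CPM). *Adipoq* was at 0 counts in transgenic replicate 1. The 9 skeletal and cardiac muscle markers summed to 1281 normalized CPM in transgenic replicate 2, against 142 and 105 in WT and 26.5 in transgenic replicate 1. They were led by *Acta1*, except in transgenic replicate 1, where *Ckm* was highest. The 6 squamous epithelium markers, led by *Krt13*, summed to 2395 and 1357 normalized CPM in WT, 785 in transgenic replicate 1 and 4051 in transgenic replicate 2. The 5 markers of mucous neck cells and of spasmolytic polypeptide-expressing metaplasia (SPEM), led by *Tff2*, summed to 10182 and 12537 in WT, 20331 in transgenic replicate 1 and 9083 in transgenic replicate 2. WT replicate 2 thus stood apart in sex and fat markers, and the transgenic samples differed from each other in muscle, squamous and mucous neck markers.

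Across all genes, 17643 passed the filter on low counts, and 37 of the 38 genes were among them. Genes count as called where edgeR's quasi-likelihood test, adjusted after Benjamini and Hochberg over all tested genes, gave p under 0.05 and the log2 fold change exceeded 0.585 in size. In *c-Myc* transgenic mice 11 of the 37 tested genes were called lower, where 5.08% of all tested genes were. None was called higher, where 5.65% of all tested genes were. At an unadjusted p-value under 0.05 none of them was higher either, where 17.7% of all tested genes were, and 23 were lower, where 16.4% were. DESeq2 called 0 of them higher, where it called 8.35% of all genes, and 11 lower, all shared with edgeR, where it called 9.64%. The median log2 fold change was -0.31 over the 37 genes and 0.012 over all tested genes. Fold changes were negative for 35 of the 37 genes, and for 28 with library size in place of TMM scaling. That scaling moved the median of all genes to 0.23 and the median of these genes to -0.087, and it left 5 members called lower (*Acsl1*, *Echs1*, *Idh2*, *Ogdh* and *Pcx*), where 4.19% of all genes were, and 0 called higher, where 12.9% were; 2 were higher and 13 lower at an unadjusted p-value under 0.05, where 30.5% and 9.64% of all genes were. A change of scaling shifts all genes by about the same amount, so the distance of the members from the median of all genes, -0.32, is alike under both by construction. Fewer cells of a type and less RNA per cell cannot be told apart in these bulk samples.

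The number of calls rested on having both WT samples. Without WT replicate 1 and without WT replicate 2, edgeR called 0 genes of the whole table, and so 0 of these, with the remaining WT sample assumed to vary like the others. At an unadjusted p-value under 0.05, 13 members were lower and 0 higher without WT replicate 1, where 9.49% and 9.89% of all tested genes were, and 15 were lower and 0 higher without WT replicate 2, where 8.35% and 9.97% were. DESeq2 was not run on these subsets. With single samples left out the members' median ranged from -0.37 to -0.27.

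**Figure D1:**
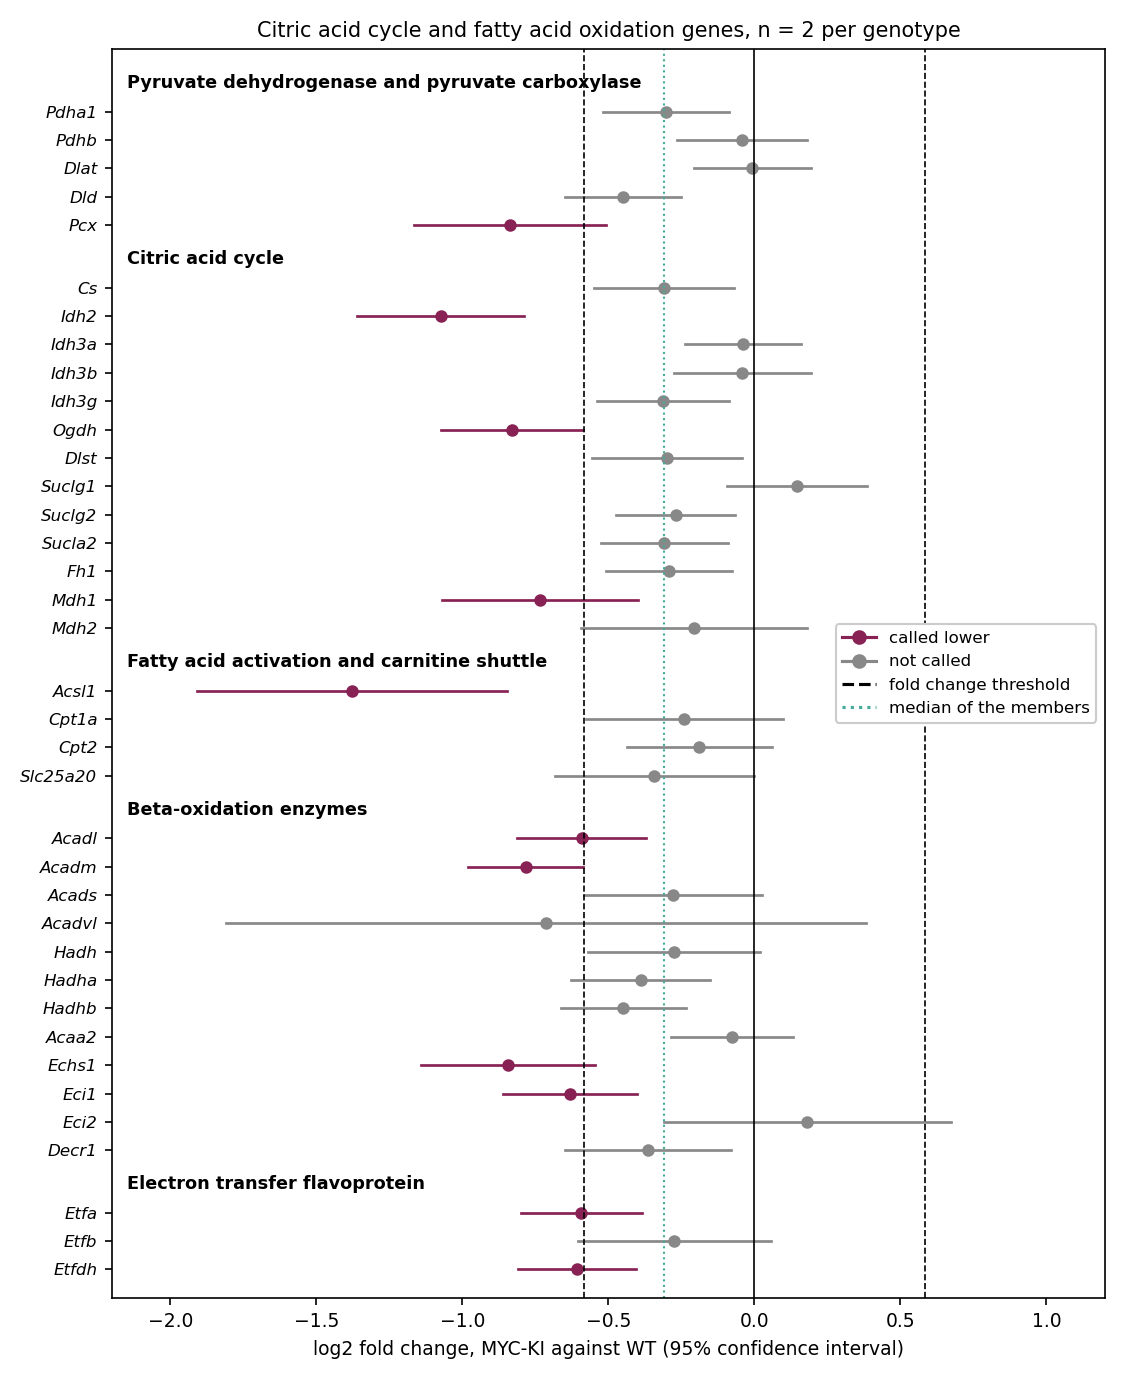
Log2 fold changes (dots) with 95% confidence intervals (lines) from edgeR for the 37 tested genes, grouped by role, in *c-Myc* transgenic against WT stomach (n = 2 per genotype). The 11 genes called lower lie at or beyond -0.59, and the dotted line marks the median of the 37 genes at -0.31; with library size in place of TMM scaling this median was -0.087.

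Pyruvate carboxylase, which feeds carbon into the cycle as oxaloacetate, was the member of its group called lower. *Pcx* had 252 and 306 normalized CPM in WT replicates 1 and 2 and 154 and 158 in the transgenic samples. The genotypes did not overlap, and the highest value was in WT replicate 2, the sample with the most adipocyte marker RNA and the most *Xist* counts. What adipose RNA or sex contributed to the *Pcx* values was not tested. The fitted log2 fold change was -0.84 (standard error 0.12, adjusted p = 0.0307), and -0.69 without WT replicate 2.

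The subunits of pyruvate dehydrogenase, which commits pyruvate to acetyl-CoA, did not move alike. *Pdhb* (E1 beta, log2 fold change -0.04, standard error 0.08) and *Dlat* (E2, -0.01, standard error 0.07) had nearly the same means in both genotypes, 103 and 100.3 normalized CPM for *Pdhb* and 127 and 126 for *Dlat*. Both of these values turned positive with library size. *Pdha1*, the X-linked E1 alpha subunit, had a log2 fold change of -0.30 (adjusted p = 0.0791), and 16.1% of its exon bases are shared with the antisense gene *Map3k15*. *Dld*, the E3 subunit that also serves oxoglutarate dehydrogenase, stood at 196 and 196 normalized CPM in WT and at 144 and 143 in transgenic mice. Its spread within each genotype was small, and its log2 fold change of -0.45 (adjusted p = 0.0356) passed the p-value and not the fold threshold.

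Of the 13 genes of the citric acid cycle 3 were called lower. *Ogdh*, the E1 subunit of oxoglutarate dehydrogenase, stood at 941 and 882 normalized CPM in WT replicates 1 and 2 and at 513 in each transgenic sample. It was the member with the most counts in every sample, and the transgenic samples lay well below both WT samples. The log2 fold change was -0.83 (standard error 0.09, adjusted p = 0.0212). *Idh2*, the NADP-dependent isocitrate dehydrogenase of the matrix, stood at 179 and 155 normalized CPM in WT and at 77.1 and 81.8 in transgenic mice. Both transgenic values were about equal and well under the lower WT value. Its log2 fold change of -1.08 (adjusted p = 0.0198, standard error 0.11) was the largest fall among the genes of the cycle. *Mdh1*, the cytosolic malate dehydrogenase of the malate-aspartate shuttle, stood at 487 and 433 normalized CPM in WT and at 298 and 254 in transgenic mice. The replicates differed more than those of *Ogdh*, and the genotypes did not overlap (log2 fold change -0.73, standard error 0.12, adjusted p = 0.0373).

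The other 10 genes of the cycle were not called. Citrate synthase, which starts the cycle, stood at 630.2 and 587 normalized CPM in WT and at 494 and 488 in transgenic mice (*Cs*, log2 fold change -0.31, adjusted p = 0.0908). *Idh3g* (-0.31), *Dlst* (-0.30), *Suclg2* (-0.27), *Sucla2* (-0.31) and *Fh1* (-0.29) had fold changes close to that of *Cs*, and their WT samples lay above their transgenic samples. *Idh3a* and *Idh3b*, the alpha and beta subunits of the NAD-dependent isocitrate dehydrogenase, were both at -0.04. *Mdh2*, the matrix malate dehydrogenase, was at -0.21 (standard error 0.14), and its genotypes overlapped. *Suclg1*, the alpha subunit of both succinyl-CoA ligases, was at 0.15 (standard error 0.09, adjusted p = 0.319), with both transgenic samples above both WT samples, as for 33.3% of all tested genes. Under library size *Idh3a*, *Idh3b* and *Mdh2* also turned positive.

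Among the genes that bring fatty acids into the matrix, *Acsl1* was called lower. *Acsl1*, a long-chain acyl-CoA synthetase that activates fatty acids, stood at 146 and 209 normalized CPM in WT replicates 1 and 2 and at 65.8 and 70.8 in transgenic mice. The WT samples differed from each other, WT replicate 2 being the higher as it was for the adipocyte markers, and both lay above the transgenic samples. The log2 fold change of -1.38 (adjusted p = 0.0300, standard error 0.20) was the largest of the members, and it was -1.10 without WT replicate 2 and -1.62 without WT replicate 1. The part of adipose RNA in it was not tested. The carnitine acyltransferases *Cpt1a* (-0.24, standard error 0.13) and *Cpt2* (-0.19, standard error 0.09) and the carnitine carrier *Slc25a20* (-0.34, standard error 0.13, adjusted p = 0.144) were not called. Under library size *Cpt2* turned positive (0.034). *Cpt1b*, the muscle form, was not tested, since it had no counts in WT replicate 1, 2 in WT replicate 2, and 1 and 2 in the transgenic samples. Of its exon bases 81.4% are shared with *Gm44502* on the same strand, so reads of these genes cannot be told apart.

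Of the 12 beta-oxidation genes 4 were called lower, and they act in dehydrogenation, hydration and isomerization. *Acadm*, the medium-chain acyl-CoA dehydrogenase, stood at 112 and 112 normalized CPM in WT and at 64.2 and 65.6 in transgenic mice. The replicates were nearly equal within each genotype, and its log2 fold change was -0.78 (standard error 0.07, adjusted p = 0.0188). The long-chain enzyme *Acadl* stood at 169.8 and 159 normalized CPM in WT and at 111 and 107 in transgenic mice. The log2 fold change of -0.59 (adjusted p = 0.0287, standard error 0.08) lay just past the fold threshold. *Echs1*, the short-chain enoyl-CoA hydratase, stood at 184 and 170.4 normalized CPM in WT and at 106 and 91.2 in transgenic mice. Its row does not move on re-sorting, its genotypes did not overlap, and its log2 fold change was -0.84 (standard error 0.11, adjusted p = 0.0269). *Eci1*, an isomerase that prepares unsaturated fatty acids, stood at 62.6 and 65.6 normalized CPM in WT and at 39.98 and 42.8 in transgenic mice. This row too is the same in both orders, and its log2 fold change was -0.63 (standard error 0.09, adjusted p = 0.0277).

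The other 8 genes of beta-oxidation were not called. *Hadha* and *Hadhb*, the subunits of the trifunctional protein that handles long chains, had log2 fold changes of -0.39 (adjusted p = 0.0603) and -0.45 (adjusted p = 0.0396), the second under the fold threshold. *Hadh* (-0.28), *Acads* (-0.28), *Decr1* (-0.36) and the thiolase *Acaa2* (-0.08) had both transgenic samples below both WT samples after TMM scaling. Under library size *Acaa2* turned positive (0.15). *Eci2*, a relative of *Eci1*, was at 0.18 (standard error 0.18), and its genotypes overlapped. The value rested on single samples, being 0.025 without WT replicate 2, 0.029 without transgenic replicate 1, 0.32 without transgenic replicate 2 and 0.35 without WT replicate 1. *Acadvl*, the very-long-chain dehydrogenase, was low, with 196 counts in WT replicate 1, 213 in WT replicate 2, 94 in transgenic replicate 1 and 242 in transgenic replicate 2, and its log2 fold change of -0.71 had a standard error of 0.41. It was -0.31 without transgenic replicate 1 and -1.28 without transgenic replicate 2. Leaving out each sample in turn also moved other members that were not called, *Mdh2* between -0.33 and -0.07, *Cpt1a* between -0.37 and -0.11, *Slc25a20* between -0.45 and -0.23, *Acads* between -0.41 and -0.15, *Etfb* between -0.39 and -0.16, *Cpt2* between -0.26 and -0.11, *Acaa2* between -0.11 and -0.05, *Idh3a* between -0.05 and -0.02 and *Suclg1* between 0.08 and 0.21. Of the exon bases of *Acadvl* 42.9% are shared with *Dvl2* on the opposite strand, and reads that fall on both genes cannot be told apart where counting is not stated to use strand.

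Electron transfer flavoprotein accepts electrons from the acyl-CoA dehydrogenases and passes them through *Etfdh* to ubiquinone. *Etfa*, its alpha subunit, stood at 192 and 183 normalized CPM in WT and at 125 in each transgenic sample. *Etfdh* stood at 106 and 102 in WT and at 67.2 and 69.2 in transgenic mice. For both genes the replicates lay close together and the genotypes apart. *Etfa* fell by 0.59 on the log2 scale (adjusted p = 0.0264) and *Etfdh* by 0.61 (adjusted p = 0.0244), close to the fold threshold and each with a standard error of 0.08. *Etfb*, the beta subunit, was at -0.27 (standard error 0.12, adjusted p = 0.203), and 58.2% of its exon bases are shared with *Gm45233* and *Mir7051* on its strand. Of the 9 tested members whose rows do not move, 4 were called lower (*Echs1*, *Eci1*, *Etfa* and *Etfdh*), and the same 4 were called when only such rows were fitted, an alternative chosen after seeing the data, in which 5.24% of 1355 tested genes were called lower and 4.5% higher.

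**Figure D2:**
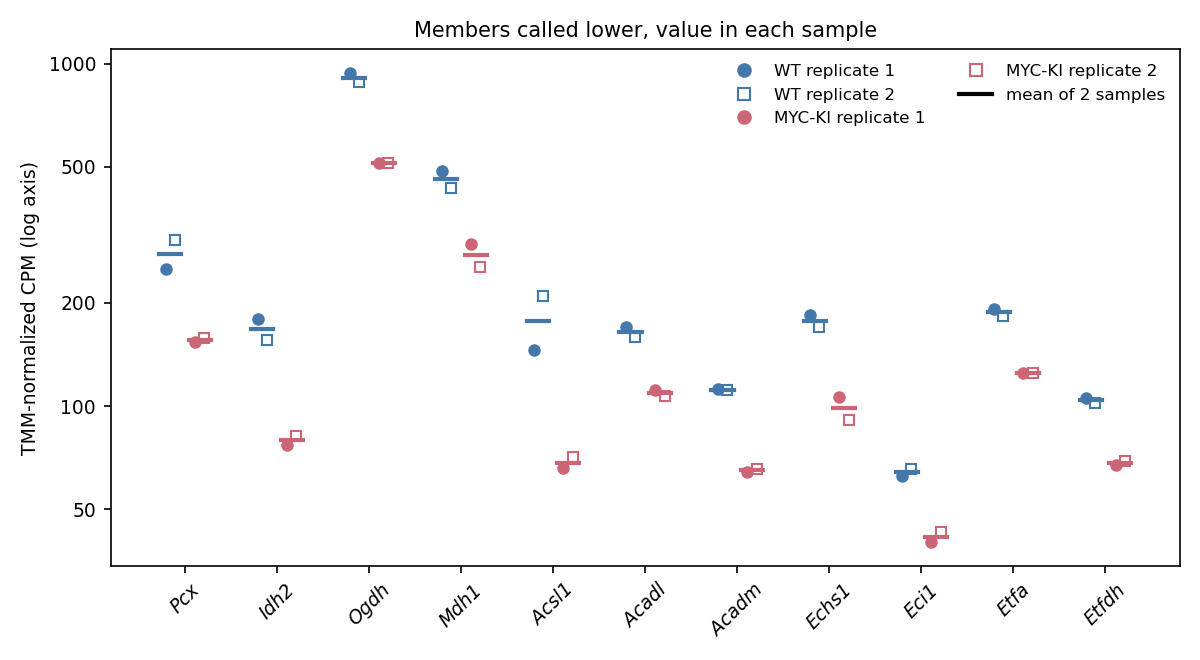
TMM-normalized CPM (log axis) of the 11 genes called lower, in each WT sample (blue) and each *c-Myc* transgenic sample (red, labelled MYC-KI), with the mean of 2 samples as a bar. Both transgenic samples lie below both WT samples for each gene, as for 31.5% of all tested genes, and the widest gap between WT replicates is that of *Acsl1*, 146 and 209.

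In all, both transgenic samples lay below both WT samples for 31 of the 37 tested genes, where 31.5% of all tested genes showed this. These counts use TMM-normalized values. Under library size 28 of the 37 fold changes were negative, so at most 28 members can lie below WT there, and that count is not given. The normalized CPM of the 38 genes summed to 7840 and 7481 in WT and to 5770 and 5671 in transgenic mice. As a share of all counts, which needs no scaling factor, they made up 0.728% and 0.690% in WT and 0.624% and 0.611% in transgenic mice. This share is tied to the most abundant genes, since the 100 most abundant took 29.4% and 29.8% of WT counts and 20.6% and 19.5% of transgenic counts. The chief cell gene *Pgc* alone took 7.52% and 7.07% in WT and 0.113% and 0.154% in transgenic mice. Outside those 100 genes the members made up 1.03% and 0.983% of WT counts and 0.786% and 0.759% of transgenic counts.

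Ratios between members of the same complex or step within a sample do not depend on scaling. They were formed for 10 pairs, which were picked after the values had been seen, and with 2 samples per genotype the smallest two-sided p an exact permutation test allows is 0.333. The log2 ratio of *Ogdh* to *Dlst*, the E1 and E2 subunits of oxoglutarate dehydrogenase, was 1.79 in each WT sample and 1.19 and 1.34 in the transgenic samples. The E1 transcript was thus less abundant relative to E2 in both transgenic samples than in either WT sample (exact permutation p = 0.333). The log2 ratio of *Idh2* to *Idh3a*, the NADP-dependent and the NAD-dependent isocitrate dehydrogenase, was 0.04 and -0.17 in WT and -1.13 and -1.07 in transgenic mice. That of cytosolic *Mdh1* to matrix *Mdh2* was -0.004 and 0.08 in WT and -0.50 and -0.48 in transgenic mice. In these pairs too the genotypes did not overlap. By contrast, the ratio of *Hadha* to *Hadhb* was 2.10 and 1.93 in WT and 2.10 and 2.06 in transgenic mice, and that of *Suclg2* to *Sucla2*, the GTP-forming and ATP-forming beta subunits, was 0.61 and 0.66 in WT and 0.71 and 0.63 in transgenic mice. The genotypes overlapped for these pairs and for *Idh3b* to *Idh3a*, and did not overlap for the other 7. Such a gap is common: it held for 71.2% of all 666 pairs of tested members and for 61.6% of all pairs of tested genes with counts in every sample, so the count of 7 does not set the 10 pairs apart.

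**Figure D3:**
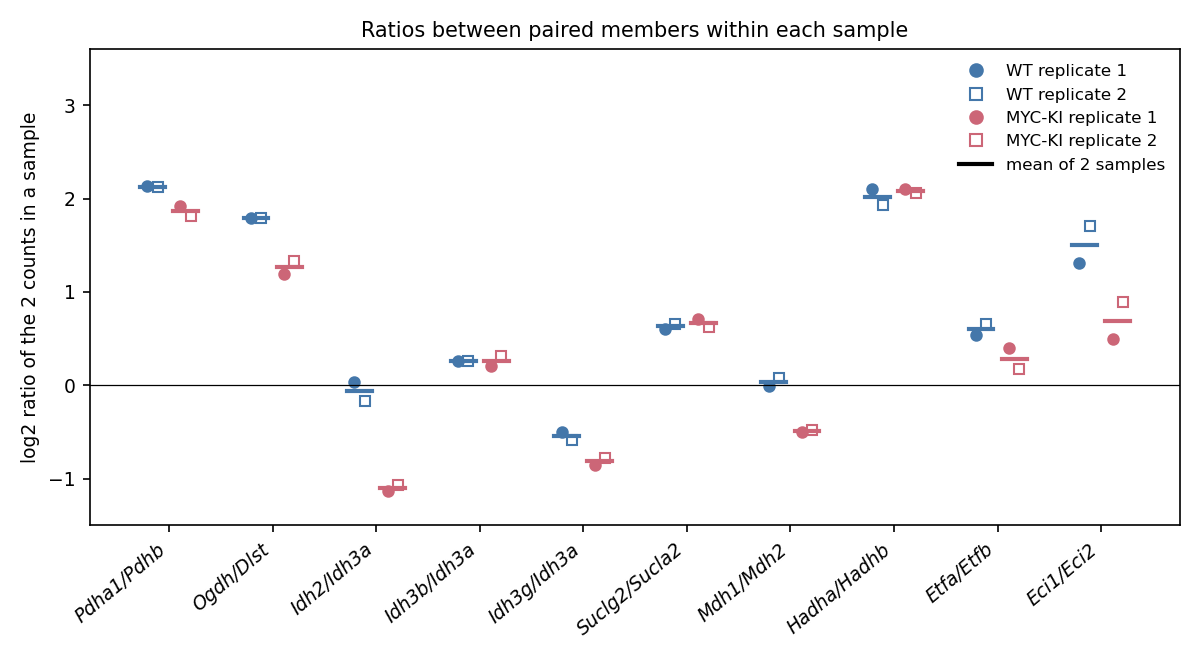
Log2 ratio of the counts of 2 members within each sample, for 10 pairs, with WT in blue, *c-Myc* transgenic samples (MYC-KI) in red and the mean of 2 samples as a bar. The ratio of *Idh2* to *Idh3a* drops from 0.04 and -0.17 to -1.13 and -1.07, while that of *Hadha* to *Hadhb* lies between 1.93 and 2.10 in all 4 samples.

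Per kilobase of annotated exon, which allows genes to be compared, *Mdh1* (179) and *Ogdh* (167) had the highest mean levels of the members in WT, in normalized CPM per kilobase, and the difference between them was of the order of the spread of *Mdh1* (189.5 and 168.6) over the WT samples. *Mdh2* (126), *Pdha1* (121) and *Acaa2* (112) followed. In transgenic mice *Mdh2* (109), *Mdh1* (108) and *Acaa2* (106) lay together at the top, and *Ogdh* was at 94.1. The lowest in WT and in transgenic mice were *Eci2* (4.09 and 4.64), *Acadvl* (2.51 and 1.52) and *Cpt1b*, next to *Slc25a20* (9.86) in WT and *Acsl1* (6.52) in transgenic mice. These levels use the union of all annotated exons, which is long for genes with many isoforms such as *Acsl1* (10483 bases) and *Dlst* (9559 bases).

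Other genes of the same pathways were counted over whole lists. Of all tested genes, edgeR called 5.08% lower and 5.65% higher and DESeq2 9.64% and 8.35%, and 16.4% and 17.7% had an unadjusted p-value under 0.05; the counts of every list below are to be read against these shares. Of 37 further genes of pyruvate and the citric acid cycle, all tested, 5 were called lower and 1 higher (7 and 2 in DESeq2), with a median log2 fold change of -0.29. *Me3*, a mitochondrial malic enzyme, had 16.7 and 15.6 normalized CPM in WT and 1.42 and 1.59 in transgenic mice (log2 fold change -3.42, standard error 0.20, adjusted p = 0.0107). The mitochondrial pyruvate carrier subunit *Mpc2* was at -0.75 (-0.53 and not called under library size) and the malic enzyme *Me2* at -1.13. The others called lower, named after their values were seen, were *Got1* and *Pdk2*, and under library size neither was called. *Me1*, the cytosolic malic enzyme, which makes NADPH, was called higher, with 433 and 505 normalized CPM in WT and 694 and 789.7 in transgenic mice (log2 fold change 0.66, adjusted p = 0.0462). For 3 subunits of succinate dehydrogenase, an enzyme of the cycle, the fold threshold was not passed: *Sdha* was at -0.48, *Sdhb* at -0.50 and *Sdhc* at -0.46, with adjusted p-values between 0.0341 and 0.0473. The subunit *Sdhd* went the other way, with 242 and 238 normalized CPM in WT, 279.5 and 258 in transgenic mice and a log2 fold change of 0.16 (adjusted p = 0.255; 0.11 without transgenic replicate 1 and 0.22 without transgenic replicate 2). All 4 were named after their values were seen.

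Of 50 further genes of fatty acid oxidation 10 were called lower and 0 higher by edgeR, with a median of -0.27; at an unadjusted p-value under 0.05, 17 were lower and 3 higher, and DESeq2 called 12 lower and 0 higher. The fatty acid transporter *Cd36* fell from 152 and 189 normalized CPM to 13.7 and 27.2 (log2 fold change -3.06, adjusted p = 0.0245), and the adipocyte fatty acid binding protein *Fabp4* from 66.6 and 111 to 14.4 and 18.4 (-2.44, adjusted p = 0.0245). Both were highest in WT replicate 2, like the adipocyte markers, and the part of adipose RNA in their values was not tested. *Acacb*, whose product malonyl-CoA restrains the carnitine shuttle, was at -1.76, and the branched short-chain dehydrogenase *Acadsb* at -1.98, with 200.1 and 219 normalized CPM in WT and 53.5 and 52.7 in transgenic mice. *Oxct1*, which activates ketone bodies, was named after its values were seen and was at -1.64.

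Nuclear genes of oxidative phosphorylation had a median of -0.26 over 71 tested genes, close to that of the members, but the share called lower was about that of all tested genes: edgeR called 4 lower (5.63%, against 5.08%) and 0 higher, and DESeq2 6 lower, where it called 9.64% of all genes, and 0 higher. At an unadjusted p-value under 0.05, 38 were lower and 0 higher, where 16.4% and 17.7% of all genes were. *Cycs*, cytochrome c, was at -0.77, *Atp5g1* at -0.65 and *Ndufa11* at -0.61; *Cox7a1*, named after its values were seen, was at -2.61. Under library size *Cycs*, *Atp5g1* and *Ndufa11* were not called. Glycolysis had a median of 0.11 over 20 genes, with 2 called higher and 1 lower. *Hk2*, a hexokinase, was at 0.68 and the lactate and pyruvate transporter *Slc16a1* at 1.06. *Ldhb*, the lactate dehydrogenase subunit of oxidative tissues, fell from 229 and 238 normalized CPM to 58.1 and 75.1 (log2 fold change -1.81, adjusted p = 0.0176). Differences between these lists were not tested.

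Of 16 regulators of oxidative genes, 2 were called lower and 1 higher. *Esrrg*, an estrogen-related receptor, had 177 and 198 normalized CPM in WT and 10.6 and 12.6 in transgenic mice (log2 fold change -4.01, adjusted p = 0.00635). *Esrrb* was at -4.40 and *Pprc1* at 0.65. *Ppara* (-0.81, adjusted p = 0.0882), *Ppargc1a* (-1.02, adjusted p = 0.0821), *Esrra* (0.04) and the mouse *Myc* row (-0.35, adjusted p = 0.163) were not called by edgeR. DESeq2 called 4 of the 16 lower and 1 higher, and *Ppara* and *Ppargc1a* were among the 4. The *Myc* row carries the name of the mouse gene, and whether reads of the human transgene fell on it was not tested.

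Most markers of parietal, chief, surface mucous and enteroendocrine cells were lower, like the members. Of the 11 parietal cell markers found, 10 were called lower, and their sum was 14634 and 14805 normalized CPM in WT and 1923 and 1856 in transgenic mice. *Atp4a*, the proton pump alpha subunit and their most abundant gene in WT, fell from 7684 and 7949 to 138.5 and 187 normalized CPM. *Atp4b*, whose promoter drives Cre, fell from 2610 and 2490 to 38.4 and 51.7. In transgenic mice *Car2*, named after its values were seen and the marker not called, made up most of the sum. It had 1631 and 1700 normalized CPM in WT and 1398 and 1300 in transgenic mice (log2 fold change -0.30). No parietal marker was at 0 in any sample. The chief cell markers (4 of 5 tested called lower) summed to 83092 and 78857 in WT and 1100 and 1463 in transgenic mice, and *Lipf* was at 0 throughout. *Pga5*, named after its values were seen and the tested chief cell marker not called, had a log2 fold change of 0.02 (standard error 0.28). Surface mucous cell markers (4 of 5 lower) summed to 46968 and 56209 in WT and 16761 and 19228 in transgenic mice. They were led by *Gkn2*, except in transgenic replicate 1, where *Gkn3*, the marker not called, was highest (5803 normalized CPM). *Gkn3*, named after its values were seen, went the other way, with a log2 fold change of 0.73 (standard error 0.53). It had 2079 and 2649 normalized CPM in WT and 2035 in transgenic replicate 2, so its genotypes overlapped. Enteroendocrine markers, led by *Chga* (5 of 6 lower), summed to 2404 and 1529 in WT and 481 and 527 in transgenic mice. The log2 fold changes of the parietal markers had a median of -3.86 and ranged from -5.82 to -0.30, and those of the members ranged from -1.38 to 0.18. The part of these cell types in the members' values was not tested.

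The directions of the other lists were mixed. Mucous neck and SPEM markers had 1 of 5 called higher, *Wfdc2* (log2 fold change 1.36), and 3 of 6 proliferation markers were called higher, with sums of 400.1 and 375 in WT and 584 and 534 in transgenic mice. Pancreatic acinar markers, led by *Pla2g1b* in WT and by *Cela1* in transgenic mice, had 4 of 4 tested called lower. Of the 8 genes 3 were at 0 throughout (*Cpa1*, *Prss2* and *Amy2a5*). *Pnlip* did not pass the filter on low counts and went the other way. Its normalized CPM were 0.03 and 0 for WT replicates 1 and 2, against 0.53 and 0.16 for transgenic replicates 1 and 2. These genes at or near 0 were named after their values were seen. Whether the tested markers report acinar cells here was not tested. Leukocyte markers had 2 of 5 called lower, *Adgre1* and *Itgam*. White adipocyte markers had 1 of 6 called lower (*Lep*), with 6 of 6 lower at an unadjusted p-value under 0.05 and 4 called lower by DESeq2, and skeletal and cardiac muscle markers had 1 of 8 called higher (*Myh7*), both named after their values were seen. Smooth muscle (6 tested), squamous epithelium (6 tested) and brown adipocyte markers (2 tested) had 0 called in edgeR, 0 at an unadjusted p-value under 0.05 and 0 in DESeq2. Smooth muscle markers, led by *Myh11*, summed to 7640 and 4827 in WT and to 2479 and 5270 in transgenic mice, and *Ucp1* was at 0 in all 4 samples.

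Promoter windows of RefSeq (GRCm38.p6), 250 bases before to 50 bases after a start, were found for 34 of the 38 genes, 41 windows in all. Both strands were searched for the E-box CACGTG, a motif bound by MYC, for AAGGTCA, bound by estrogen-related receptors, and for a direct repeat of AGGTCA with 1 base between, bound by peroxisome proliferator-activated receptors. The last 7 letters of that repeat can overlap AAGGTCA. The E-box was found in windows of 2 genes, *Pcx* and *Ogdh*, and AAGGTCA in windows of 2 genes, *Ogdh* and *Acadm*. Of all 27025 genes with a window, 8.09% hold the E-box in any of theirs and 5.38% hold AAGGTCA. Counted by window, the E-box stands in 4 of the 41 (9.76%), against 7.15% of all 32851 windows and 9.07% of those of tested genes, and AAGGTCA in 2 (4.88%), against 4.72% and 3.64%. The repeat is in 0.0396% of all windows and in no window of the members. *Ogdh* has 3 windows with an E-box, and those at chr11:6292308-6292607 and chr11:6292329-6292628, which are not printed, overlap and hold the same match. For each called gene with a match 1 window is shown, with the motif in capitals, read 5′ to 3′ on the strand of the gene, where TGACCTT is AAGGTCA on the other strand. A match is a description and not a site of binding.
*Ogdh*, chr11:6291920-6292219, plus strand, E-box at base 141 and TGACCTT at base 246 of the window: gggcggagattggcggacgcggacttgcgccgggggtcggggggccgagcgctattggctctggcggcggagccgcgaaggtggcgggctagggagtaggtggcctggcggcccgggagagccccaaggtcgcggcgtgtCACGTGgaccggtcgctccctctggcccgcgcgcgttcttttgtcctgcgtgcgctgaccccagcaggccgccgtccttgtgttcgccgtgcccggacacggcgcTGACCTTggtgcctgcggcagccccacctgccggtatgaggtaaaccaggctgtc
*Pcx*, chr19:4510222-4510521, plus strand, E-box at base 3: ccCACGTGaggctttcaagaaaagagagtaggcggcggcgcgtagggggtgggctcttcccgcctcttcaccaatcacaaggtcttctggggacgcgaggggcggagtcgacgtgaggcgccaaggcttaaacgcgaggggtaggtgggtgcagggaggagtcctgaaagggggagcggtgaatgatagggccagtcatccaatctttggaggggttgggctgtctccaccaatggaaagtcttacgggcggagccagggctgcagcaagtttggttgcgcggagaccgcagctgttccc
*Acadm*, chr3:153944594-153944893, minus strand, TGACCTT at base 2: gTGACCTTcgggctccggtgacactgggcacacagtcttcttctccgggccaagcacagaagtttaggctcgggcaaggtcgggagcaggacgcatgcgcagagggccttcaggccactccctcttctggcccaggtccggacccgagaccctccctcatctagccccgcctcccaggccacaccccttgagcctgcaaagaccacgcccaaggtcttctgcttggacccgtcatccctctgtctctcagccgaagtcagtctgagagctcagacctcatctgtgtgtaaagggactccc
The *Ogdh* gene lies at chr11:6291633-6356642, *Pcx* at chr19:4510472-4621752 and *Acadm* at chr3:153922357-153944632 (GENCODE M21, GRCm38), and each window surrounds a transcript start of RefSeq.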

How the data were processed

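Stomach RNA-seq of 2 WT and 2 *Atp4b-cre; Myc OE* samples was used, grouped by the sample labels. The authors deposited raw counts per gene symbol, without normalization. The submitters' processing notes name HISAT2 and mm10, and the counting tool, its use of strand and the annotation are not given in the sources used here. The series text speaks of triplicates, while 2 samples per genotype are labelled, and those were used. The labels do not say that each sample is 1 animal, so p-values measure the spread between these samples. The counts of replicates were compared only to see whether a library had been deposited more than once. They differed by more than counting noise (chi-square per degree of freedom 28.9 in WT and 97.9 in transgenic samples), as separate samples would, so each was counted as 1 sample.

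The counts of both transgenic columns were assigned, in row order, to the names sorted by character code. The members and lists were chosen with earlier results of these data known. The test was edgeR's (version 4.0.16, R 4.3.3), with TMM, filterByExpr, glmQLFit and glmQLFTest, no covariates and Benjamini-Hochberg adjustment. On simulated counts from a single random draw, with planted log2 fold changes of size 2 in either direction, edgeR and DESeq2 recovered most changed genes. The share of false calls exceeded the nominal rate in both, more so in DESeq2. All tested members had smaller fold changes than those planted, so recovery of changes of their size was not tested. Standard errors were obtained by dividing the size of the log2 fold change by the root of the F statistic. With 30260305 to 41463647 counts per sample, the spread between 2 samples and not counting noise limits the precision of most members. Exon lengths and overlaps came from GENCODE M21 and promoter windows from RefSeq; copies of the members elsewhere in the genome were not examined. Every member may be named; of each other list, up to 4 called genes with the largest fold change and an average log2 CPM of at least 3, with a few fixed markers and regulators. In all 15 alternatives were tried, among them DESeq2 1.42.0, other scalings and filters, the replicate block and leaving out each sample, and 2 of them were chosen after seeing the data. Values of a listed gene are left unreported.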

Additional observations from a re-analysis of the deposited data

How the results depend on the processing

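Under DESeq2, its size factors in edgeR and a minimum of 10 counts in every sample, each of the 37 tested members kept its direction and its side of the thresholds. DESeq2 called 3174 genes in all, against 1892 in edgeR. With library size in place of TMM scaling 3011 genes were called, 75.5% of them higher against 52.6%, 5 members were called lower, and the median of the members was -0.087. Values turned positive there for *Pdhb* (0.18), *Dlat* (0.22), *Idh3a* (0.18), *Idh3b* (0.18), *Mdh2* (0.016), *Cpt2* (0.034) and *Acaa2* (0.15). Of 69 other named genes 10 were no longer called there: *Mpc2* (-0.53), *Got1* (-0.40), *Pdk2* (-0.39), *Cycs* (-0.55), *Atp5g1* (-0.43), *Ndufa11* (-0.38), *Tff1* (-1.01), *Cela1* (-0.54), *Dbt* (-0.53) and *Bckdhb* (-0.51). With the library size counted outside the 100 most abundant genes, an alternative chosen after seeing the data, 8 members were called lower, where 853 of 17643 genes were and 1171 were called higher, 3 of the other named genes (*Ndufa11*, *Got1* and *Pdk2*) were no longer called, and *Dlat* (0.032) and *Idh3a* (2.316e-05) turned positive. Without a filter 9 members were called lower, where 1292 of 26731 genes were and 1326 were called higher, and *Dlat* was at 0.0067. With an absolute log2 fold change above 1, 2 of 37 members (*Acsl1* and *Idh2*) were called lower and 0 higher. At that threshold 649 of 17643 genes were called lower and 464 higher, 1113 in all. With no fold threshold 13 members were called lower and 0 higher, where 1042 genes were called lower and 1232 higher, 2274 in all. When only genes whose rows do not move were fitted, also chosen after seeing the data, 132 genes were called (71 lower and 61 higher of 1355) and 4 of 9 members lower, and *Esrra* was at -0.00031; fewer genes enter that fit. In the table as deposited, 18580 genes and 23 members were called, the median of the members was -1.24, and signs turned for *Idh2* (0.086), *Idh3a* (0.29), *Hadh* (0.44), *Suclg1* (-1.03), *Me1* (-8.22), *Fabp4* (2.22), *Pprc1* (-4.92), *Myc* (2.38), *Slc16a1* (-15.09), *Hk2* (-6.11), *Wfdc2* (-6.10), *Muc6* (-20.39), *Itgam* (3.08), *Ccnb1* (-4.65), *Cela2a* (4.04), *Bckdhb* (1.35) and *Sdhd* (-16.00), since counts stand beside other names there. The labels do not say whether same-numbered samples are paired. Their deviations from the genotype means correlated at 0.067, but with 2 samples per genotype this single value cannot exclude pairing. With the replicate block 114 genes (87 lower and 27 higher) and 0 members were called. In that fit 24 members were lower at an unadjusted p-value under 0.05, where 5178 of 17643 genes passed it in either direction. Leaving out each sample in turn gave 0 to 2470 called genes, 0 to 10 members called lower and a median of the members between -0.37 and -0.27. Values that changed sign ranged from -0.032 to 0.015 for *Dlat* (positive without WT replicate 1), from -0.098 to 0.014 for *Pdhb* and from -0.11 to 0.026 for *Idh3b* (both positive without transgenic replicate 1), from -0.12 to 0.18 for *Esrra* and from -0.45 to 0.55 for *Muc6* (both negative without WT replicate 1 and without transgenic replicate 1) and from -1.53 to 2.25 for *Ckm* (negative without transgenic replicate 2). The cause of these changes was not tested.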

Other observations

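Genes that break down the branched-chain amino acids leucine, isoleucine and valine feed acetyl-CoA, acetoacetate and succinyl-CoA into the citric acid cycle. They were looked at after the low values of *Acadsb* and *Ivd* had been seen, so the list is no independent observation. Of 20 such genes, all tested, edgeR called 14 lower and 0 higher in *c-Myc* transgenic mice, and the median log2 fold change was -0.78. At an unadjusted p-value under 0.05, 17 were lower and 0 higher, and DESeq2 called 15 lower and 0 higher. Of all tested genes, edgeR called 5.08% lower and DESeq2 9.64%, and 16.4% were lower at an unadjusted p-value under 0.05. The edgeR counts use TMM scaling, and how many of the 14 stayed called under library size is not given. *Bckdhb* and *Dbt* were not called there. With TMM scaling *Mccc2* (-0.67), *Auh* (-0.67) and *Acat1* (-0.66) lay closer to the fold threshold than both of these. Without WT replicate 1, and likewise without WT replicate 2, edgeR called 0 genes of the whole table, so these calls too rest on both WT samples. The fold changes of the 14 called genes moved by at most 0.0641 in log2 in these fits, and those of the 6 others by up to 0.377. Without WT replicate 1 and without WT replicate 2 in turn, *Aldh6a1* was at -2.35 and -2.31, *Mccc1* at -1.73 and -1.75 and *Ivd* at -1.37 and -1.33. Some called genes moved more without a transgenic sample. *Bckdhb* was at -0.64 without transgenic replicate 1 and -0.84 without transgenic replicate 2. *Acat1* was at -0.76 and -0.57 in these fits, the second under the fold threshold. *Aldh6a1*, the methylmalonate semialdehyde dehydrogenase of valine breakdown, stood at 343 and 351 normalized CPM in WT and at 67.7 and 70.3 in transgenic mice. Its fitted log2 fold change in edgeR was -2.33 (adjusted p = 0.00635, standard error 0.08). *Mccc1*, a subunit of the biotin enzyme of leucine breakdown, stood at 121 and 119 in WT and at 33.8 and 38.3 in transgenic mice (-1.74, adjusted p = 0.0102). For both genes the replicates lay close together, and the transgenic samples were far below WT. *Ivd*, the dehydrogenase of leucine breakdown, was at -1.35 and *Hibadh*, of valine breakdown, at -1.11. The subunits of the branched-chain ketoacid dehydrogenase, which is built like pyruvate dehydrogenase, were at -0.83 (*Bckdha*), -0.73 (*Bckdhb*) and -0.76 (*Dbt*), and under library size *Bckdhb* and *Dbt* were not called. The E1 beta and E2 subunits of pyruvate dehydrogenase, *Pdhb* and *Dlat*, were at -0.04 and -0.01 in the same fit, the E1 alpha subunit *Pdha1* at -0.30 and the E3 subunit *Dld*, which both complexes use, at -0.45. The difference between these complexes was not tested, and neither was the part of the cell types whose markers moved with it.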
